A study of Rattus norvegicus with 20 samples.

Results

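Complement factors and complement regulators were measured in whole mesenteric artery of hypertensive and normotensive rats. The 9 genes were C4bpa and C4bpb, the chains of C4b-binding protein, C3, C1qa, C1qb, C1s, Cfd, Cd55 and Serping1, taken as all array probes that carry one of these gene names. They had 10 probes, of 30367 distinct probes and 26243 gene names on the array. All 9 genes passed the filter on dim signals and were among the 16401 genes tested. Where the files give no gene name, the identifier of a probe or transcript counts as a name in both totals. C4bpa was chosen by its measured difference between SHR and untreated WKY, and the other 8 as genes of the same system, with results of these arrays already known. The values of that comparison are therefore given as a description with no test.

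The study profiled 20 rats, 1 single-colour array each, in 5 groups of 4. SHRSP/Izm, the stroke-prone substrain, and SHR/Izm are strains with inherited hypertension and had no operation. WKY/Izm, the normotensive strain, was examined after a 1-kidney 1-clip operation (1K1C), after a 2-kidney 1-clip operation (2K1C), or untreated. The labels give 3 weeks for the operated and untreated WKY and an age of 6 weeks for all rats, without saying whether 6 weeks is the age at operation or at sampling. A clip on a renal artery raises blood pressure, and the opposite kidney is removed in 1K1C and left in place in 2K1C. No operated SHR or SHRSP and no sham-operated rats were among the 20, and the artery was taken whole, with all its cell types.

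Complement is a cascade of plasma and tissue proteins that tags particles and cells for removal. The classical branch starts when C1q binds its target. The protease C1r then activates the protease C1s, which cleaves C4 and C2. The alternative branch is amplified by the protease factor D, and both branches lead to cleavage of C3. Host cells are spared by inhibitors such as C4b-binding protein, CD55 and the C1 inhibitor. The liver makes most of the circulating proteins, whereas macrophages are a main source of C1q and adipocytes of factor D, known also as adipsin.

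A level below is the log2 of the processed spot signal minus the log2 of that array's 75th percentile, so 0 is the 75th percentile of an array's spots, and a difference is one mean level minus another. Levels of different genes are not set against each other, because each probe has its own brightness. The 75th percentile of the 20 arrays ran from 574.5 to 1193 signal units, between 66.5% and 71.7% of spots per array were well above background, no spot was saturated, and arrays of a group correlated at 0.934 to 0.995. The 20 arrays lay on 3 slides, SHR and SHRSP on one, 1K1C and untreated WKY on another, and 2K1C alone on the third. Strain and slide therefore cannot be told apart in SHR or SHRSP against any WKY group, nor slide and operation in comparisons with 2K1C, and each group of a shared slide had a row of its own. Markers of smooth muscle (8 of 8 tested), endothelium (9 of 9) and fibroblasts (10 of 10) were measured in the tissue. Markers of white adipocytes (11 of 11) and macrophages (11 of 13) were measured too.

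The level of C4bpa rests on 1 probe of 60 bases, printed on the array as 2 spots and placed by the array annotation on the minus strand of rat build rn4 at chr13:43553086-43553145. Cd55 is the only gene of the 9 with a second probe, placed at chr13:43336846-43336905 beside the first at chr13:43322246-43322305, both on the minus strand, so that its levels could be read from separate sequences. The probe sequences are shown because each C4bpa value depends on the first of them and the Cd55 pair checks one gene with 2 probes. The array annotation gives no exon or UTR for them.
C4bpa A_43_P11443: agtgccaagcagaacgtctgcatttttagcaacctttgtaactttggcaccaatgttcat
Cd55 A_64_P127808: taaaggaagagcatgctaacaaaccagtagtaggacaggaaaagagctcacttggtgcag
Cd55 A_44_P168159: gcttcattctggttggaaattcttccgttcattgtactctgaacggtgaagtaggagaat

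C4bpa, the alpha chain of the plasma protein that binds C4b and helps factor I to inactivate it, was dim in both hypertensive strains and measurable in every WKY rat. The 4 SHRSP levels were -8.15, -5.12, -4.82 and -7.72, and the 4 SHR levels were -5.64, -8.20, -6.99 and -7.77. In operated WKY the levels were -2.27, -2.04, -2.15 and -2.67 after 1K1C, and -4.43, -3.46, -3.63 and -3.51 after 2K1C. Untreated WKY had -3.83, -2.10, -2.66 and -3.39. The highest of the 8 SHRSP and SHR levels, -4.82, lay below the lowest of the 12 WKY levels, -4.43, so the strains did not overlap. Only 2 of 4 SHRSP arrays and 1 of 4 SHR arrays were well above background for C4bpa, against 12 of 12 WKY arrays on both of their slides. In signal units the C4bpa spots ran from 3.43 to 35.0 in SHRSP and from 2.73 to 20.2 in SHR, against 114.3 to 214.4 in 1K1C, 32.1 to 68.4 in 2K1C and 51.1 to 196.3 in untreated WKY. In 3 SHRSP spots and 2 SHR spots the software had put a surrogate value in place of a signal it could not measure.

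**Figure D1:**
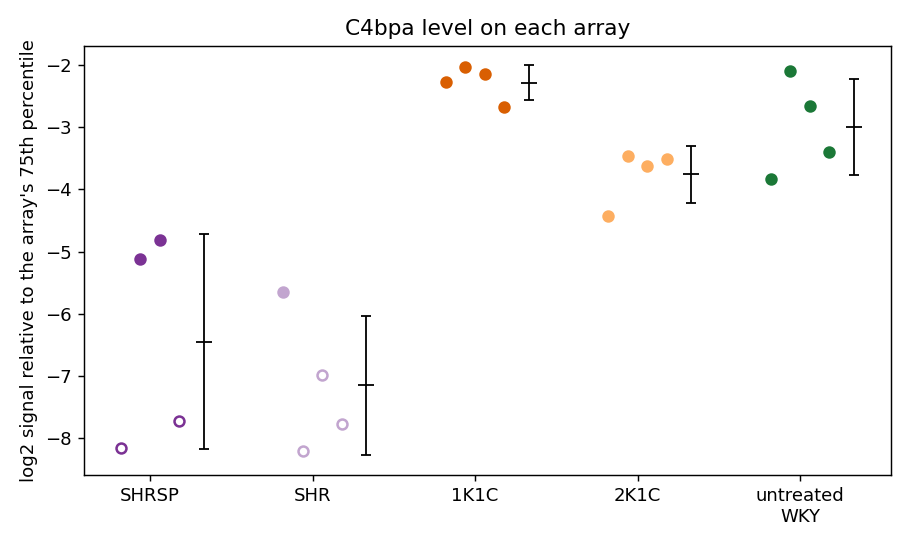
C4bpa level on each array in log2 units relative to the array's 75th percentile, by group, with the group mean and SD as a bar beside the 4 points. Open points were not well above background. All 8 SHRSP and SHR points, at most -4.82, lie below all 12 WKY points, at least -4.43.

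The C4bpa level averaged -6.45 ± 1.73 in SHRSP, -7.15 ± 1.12 in SHR, -2.28 ± 0.28 in 1K1C, -3.76 ± 0.46 in 2K1C and -2.99 ± 0.77 in untreated WKY (SD, n = 4 each). In order of level, 1K1C, untreated WKY and 2K1C came first, with untreated WKY overlapping both neighbours, and SHRSP and SHR came last and overlapped each other. The difference was -4.16 ± 0.67 (SE) for SHR against untreated WKY, the comparison that led to the choice of the gene, and -3.46 ± 0.67 for SHRSP against untreated WKY, which shares those control arrays. Neither is given a p-value. In SHR against untreated WKY 1 of the 9 genes was called, where 1.85% of all genes were called, and nothing is read from that count. In SHRSP against untreated WKY the same gene was called of the 9, where 2.4% of all genes were called, and nothing is read from that count either.

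SHRSP against the 8 operated WKY rats sets no array of that first comparison against another, although SHR and untreated WKY enter the pooled spread of the fit. It is still not independent of the choice of C4bpa, because SHRSP is a substrain of SHR and lay on the same slide. Strain, operation and slide also differ together in it, so its p-values are a description. Here C4bpa averaged -6.45 in SHRSP and -3.02 in operated WKY, a difference of -3.43 ± 0.58 with a 95% interval of -4.64 to -2.22, and limma gave an adjusted p of 0.00221. In a limma fit of SHRSP and the operated WKY alone the adjusted p was 0.00851. C4bpa passed the filter on dim signals through the WKY groups alone, and with no filter limma gave an adjusted p of 0.00379. All 4 SHRSP levels were below all 8 operated WKY levels. C4bpa was 1 of 9 genes called, where 1.7% of all genes were called, and nothing is read from that count. The difference was -2.45 when each level not well above background was raised to the dimmest signal that was well above background on its array, a floor between -6.27 and -5.52. It was -1.24 with another background correction that adds a constant to every signal. The size of the difference therefore depends on how dim signals are treated, and no fold is given.

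The C4bpa levels of SHRSP and SHR overlapped. The difference was 0.70 ± 0.67 with a 95% interval of -0.70 to 2.10 and a limma adjusted p of 1, although 2 SHRSP levels were above all SHR levels. In that comparison 0 of the 9 genes were called, where 0.36% of all genes were called. An unadjusted limma p under 0.05 was found for 1 of the 9, C4bpb, and for 584 of the 16401 genes tested. Nothing is read from that count. Between the operated groups, all 4 C4bpa levels of 1K1C were above all 4 of 2K1C. The difference was 1.47 ± 0.67, with a limma adjusted p of 0.209. In this comparison, across slides, 3532 of the 16401 genes tested had an unadjusted limma p under 0.05.

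C4bpb, the beta chain of the same protein, which in human plasma carries the site for protein S, was measured in all groups at overlapping levels. Its levels were -3.40, -2.75, -2.66 and -3.62 in SHRSP and -3.08, -3.75, -4.27 and -4.38 in SHR. They were -3.46, -3.55, -4.02 and -3.69 in 1K1C, -4.00, -3.51, -3.56 and -4.40 in 2K1C, and -4.88, -3.47, -3.44 and -3.80 in untreated WKY. Of these, 2 SHRSP arrays were above every array of the other groups, and C4bpb was well above background on all 20 arrays. C4bpb differed by 0.67 ± 0.29 in SHRSP against operated WKY (limma adjusted p 0.382) and by 0.76 ± 0.34 in SHRSP against SHR (limma adjusted p 1). In SHR against untreated WKY, where C4bpa differed by -4.16, the C4bpb difference was 0.03 ± 0.34.

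The genes for both chains and for Cd55 lie close together on rat chromosome 13, in the cluster of regulators of complement activation. On the rn4 annotation of the array the C4bpb probe was 45.1 kb from the C4bpa probe and the Cd55 probes were -230.8 and -216.2 kb from it. A window of 1000 kb on either side held 38 other probes, of which 20 passed the filter on dim signals. In a fit of all 18873 kept probes, limma called 325 in SHR and 454 in SHRSP against untreated WKY, and 318 in SHRSP against operated WKY. Beside those shares nothing is read from the counts in the window. None of its 20 kept probes was called lower in these comparisons, and 1 was called higher in each. In SHRSP against operated WKY that was the probe A_64_P024454, which has no gene name in the files, at -434.6 kb, with a difference of 2.23 ± 0.47 and a limma adjusted p of 0.0151. In SHRSP against untreated WKY it was Pfkfb2, a bifunctional enzyme of fructose-2,6-bisphosphate metabolism, at 72.5 kb, with 0.60 ± 0.14 and a limma adjusted p of 0.0341. In SHR against untreated WKY it was the unnamed probe A_64_P160410 at 407.3 kb, with 1.24 ± 0.28 and a limma adjusted p of 0.0331. The lowest difference of the 20 was -0.51 in SHRSP against operated WKY, where C4bpa had -3.43.

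**Figure D2:**
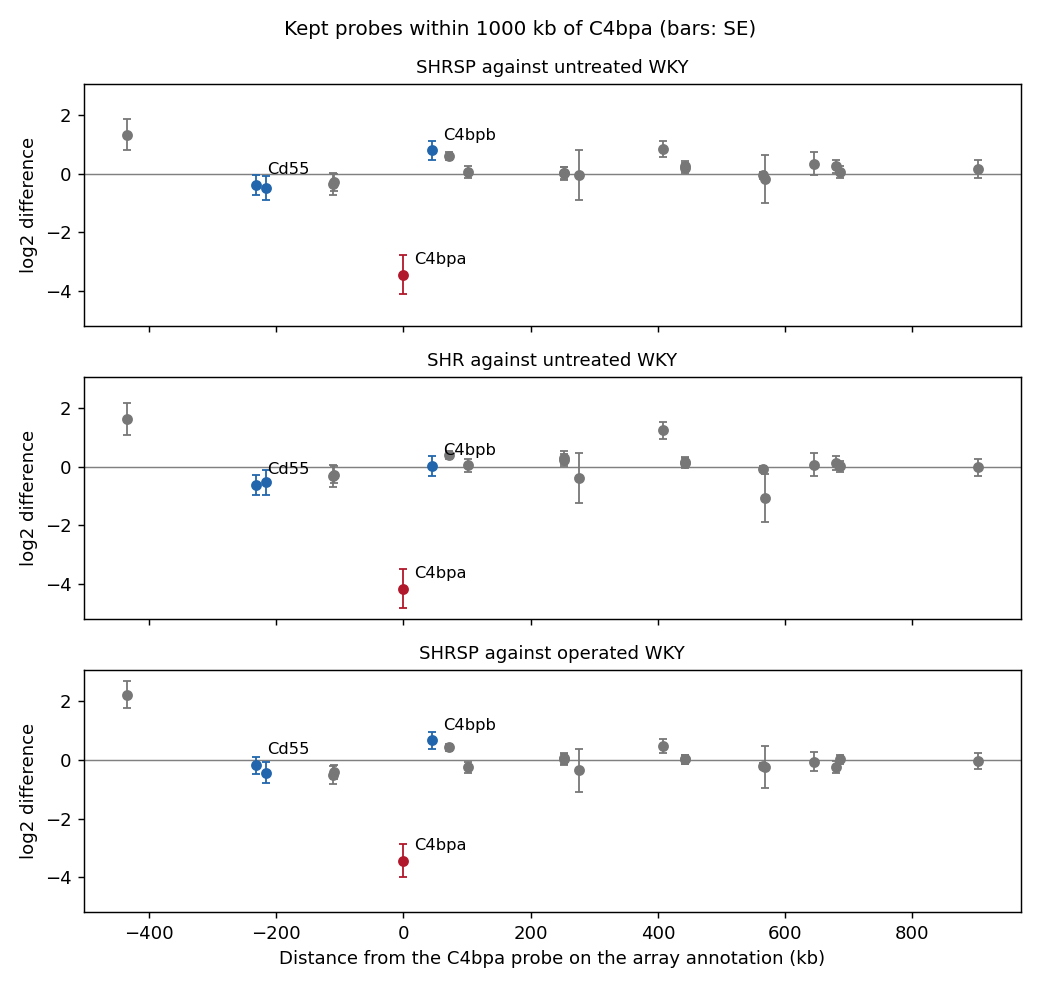
Log2 difference (with SE) of C4bpa and the 20 kept probes within 1000 kb of it, by distance in kb on the array annotation, in 3 comparisons. C4bpa, which was chosen by its difference in the middle panel, lies at -3.46, -4.16 and -3.43 from top to bottom. Its neighbours, which were not chosen by their values, lie between -1.06 and 2.23.

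The genes whose levels ran most like those of C4bpa over the 20 arrays were searched among 11992 named genes. They were Tatdn3 (Pearson r = 0.9254), Ptgr1 (0.9189), Acot5 (0.9142), Mrpl4 (0.9082) and Acsf2 (0.9078). The points share arrays, slides and strain, so each r is a description. Ptgr1, a prostaglandin reductase, averaged 0.65 in SHRSP, 0.50 in SHR, 3.11 in 1K1C, 2.57 in 2K1C and 2.91 in untreated WKY. All 20 arrays were well above background for Tatdn3, Ptgr1 and Mrpl4. Acot5, an acyl-CoA thioesterase, and Acsf2, an acyl-CoA synthetase family member, were not well above background on any SHRSP or SHR array. With dim levels of C4bpa and of these genes at the floor, r ran from 0.8739 to 0.9463.

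The initiating subcomponent C1q was represented by C1qa and C1qb, which encode the A and B chains of its collagen-like bundle. C1qa levels were 2.14, 2.54, 1.21 and 2.98 in SHRSP and 3.08, 1.63, 1.60 and 1.59 in SHR. They were 2.18, 3.61, 2.82 and 1.88 in 1K1C, 0.78, 2.58, 0.99 and 3.72 in 2K1C, and 1.82, 2.71, 2.67 and 1.94 in untreated WKY. The groups overlapped throughout, and the 2K1C group alone held both the lowest and the highest of the 20 levels. C1qb levels ran from 2.83 to 4.61 in SHRSP, 3.099 to 4.75 in SHR, 3.39 to 5.22 in 1K1C, 2.35 to 5.21 in 2K1C and 3.27 to 4.22 in untreated WKY.

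C1qa and C1qb varied together from rat to rat. Over the 20 arrays Pearson r was 0.9895 and Spearman rho 0.985, each with a permutation p of 1e-05, the smallest that 100000 resamples can give. Adjusted over 5 relations it was 1e-05 after rounding. All p-values and adjusted p-values of these relations are rounded to 5 decimals. The permutations shuffled all 20 arrays without regard to group or slide, so the p-values of the 5 relations are a description. Without the 2 arrays farthest from the median r was 0.984. Within the slide of SHRSP and SHR it was 0.993, within the slide of 1K1C and untreated WKY 0.9721 (n = 8 each), and after subtraction of the group means 0.9901. C1qc, the gene of the C chain, followed C1qa with r = 0.9684 and rho = 0.9925 (permutation p of 1e-05 each, adjusted 1e-05), and r = 0.9617 without the 2 farthest arrays. After subtraction of the group means r was 0.9728.

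The mean level of 11 macrophage markers, which include Cd68, Csf1r and Cd163, followed C1qa with r = 0.9639 and rho = 0.9669 (permutation p of 1e-05 each, adjusted 1e-05). Without the 2 farthest arrays r was 0.9449, and within the slides it was 0.9679 in SHRSP with SHR and 0.9176 in 1K1C with untreated WKY. After subtraction of the group means r was 0.9624. The mean marker level ran from -0.86 to 1.07 in SHRSP, -0.36 to 0.95 in SHR, 0.20 to 1.30 in 1K1C, -0.85 to 1.47 in 2K1C and -0.24 to 0.71 in untreated WKY. In whole tissue, fewer cells of a type and less RNA per cell cannot be told apart, and the part of macrophage content in the C1q levels was not tested.

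**Figure D3:**
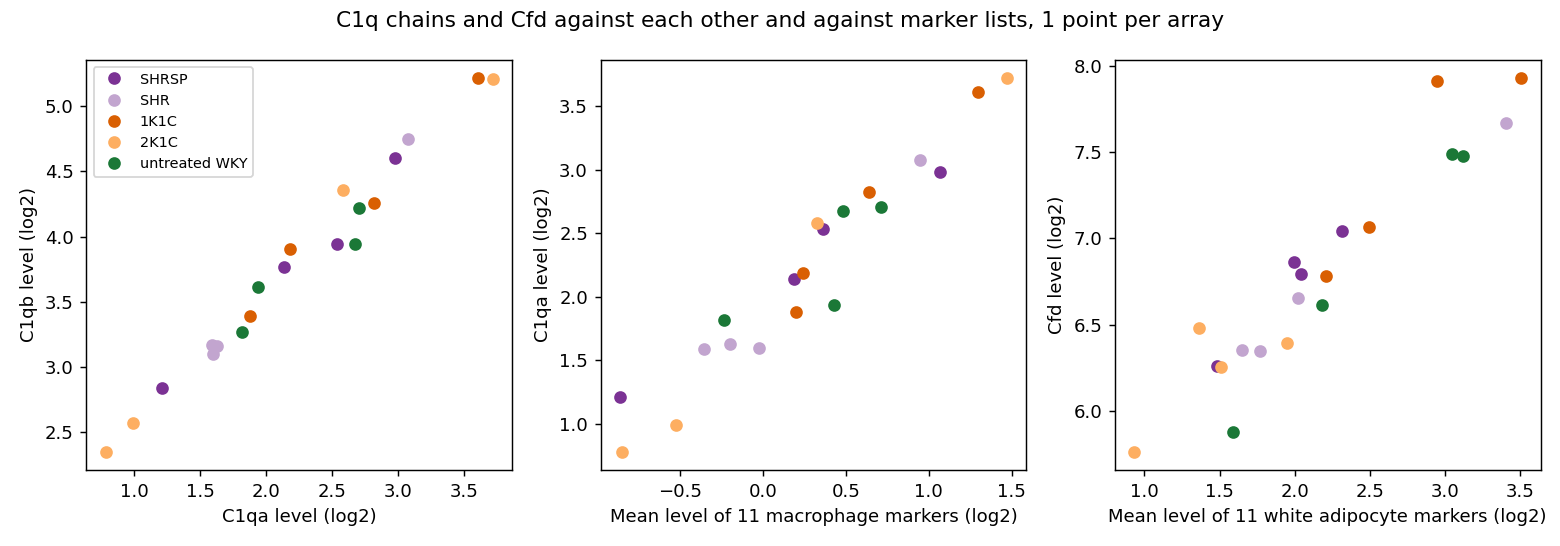
Levels on the 20 arrays in log2 units, 1 point per array and coloured by group. C1qb against C1qa (left, r = 0.9895), C1qa against the mean of 11 macrophage markers (middle, r = 0.9639) and Cfd against the mean of 11 white adipocyte markers (right, r = 0.9497) all lie along a line, with the groups mixed along it in the first 2 panels.

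C1s, the protease that cleaves C4 and C2, averaged 1.95 ± 0.39 in SHRSP, 2.20 ± 0.28 in SHR, 2.09 ± 0.41 in 1K1C, 1.52 ± 0.16 in 2K1C and 1.94 ± 0.47 in untreated WKY (SD, n = 4 each). All 4 levels of 1K1C, from 1.65 to 2.64, were above all 4 of 2K1C, from 1.28 to 1.64, but by a narrow gap. The difference was 0.57 ± 0.25 with a limma adjusted p of 0.197. C1r, the protease that activates C1s, followed it less closely over the 20 arrays, with r = 0.689 (permutation p 0.0009, adjusted 0.0009) and rho = 0.6331 (permutation p 0.00294, adjusted 0.00294). Without the 2 farthest arrays r was 0.668, and within the slides it was 0.7688 in SHRSP with SHR and 0.9608 in 1K1C with untreated WKY. After subtraction of the group means r was 0.7973.

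Cfd, the gene of factor D, was the member with the smallest p-value between the operated groups. Its levels were 7.91, 7.93, 7.07 and 6.78 in 1K1C and 5.76, 6.25, 6.40 and 6.48 in 2K1C. All 4 levels of 1K1C were above all 4 of 2K1C, as they were for C4bpa and C1s. The share of all genes that separated in this way is not given here, so nothing is read from the separation. The difference was 1.20 ± 0.37, with a 95% interval of 0.42 to 1.98 and a limma adjusted p of 0.0861. Of the 9 genes 0 were called in 1K1C against 2K1C, where 0% of all genes were called by limma although 3532 genes had an unadjusted p under 0.05, as did 4 of the 9 (C4bpa, C1s, Cfd and Cd55). Without replicate 4 of 1K1C limma called 1910 genes, among them Cfd (adjusted p 0.0309) and Cd55 (0.0462), and without replicate 1 of SHR, which enters through the pooled spread, it called 1021 genes, among them Cfd (0.0437). Without replicate 3 of 2K1C 298 genes were called and none of the 9.

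In the other groups Cfd levels were 6.79, 7.04, 6.86 and 6.26 in SHRSP, 7.67, 6.65, 6.35 and 6.35 in SHR, and 5.88, 7.48, 7.49 and 6.61 in untreated WKY. They overlapped one another and both operated groups. Cfd followed the mean level of 11 white adipocyte markers, among them Adipoq, Plin1 and Lep, with r = 0.9497 and rho = 0.9278 over the 20 arrays (permutation p of 1e-05 each, adjusted 1e-05). Without the 2 farthest arrays r was 0.9477, and within the slides it was 0.9685 in SHRSP with SHR and 0.9569 in 1K1C with untreated WKY. After subtraction of the group means r was 0.9503. The mean marker level was 2.21 to 3.51 in 1K1C and 0.93 to 1.95 in 2K1C, and all 11 markers had a higher mean in 1K1C, by a median of 1.36. All 8 smooth muscle markers had a lower mean in 1K1C, with a median difference of -1.57. Other lists also lay to one side, with all 8 tested of 9 pancreas markers higher in 1K1C (median 0.97). All 4 tested of 8 lymphocyte markers (median -1.15) and 8 of 9 endothelial markers (median -0.07) were lower. The mean lymphocyte marker level was -5.14, -2.21, -5.26 and 2.02 in 2K1C. It ran from -4.19 to -3.21 in 1K1C, so these groups overlapped. No marker of these 5 lists was called. The mean smooth muscle marker level was 2.62, 0.65, 3.62 and 3.65 in 1K1C and 4.70, 4.48, 4.15 and 3.13 in 2K1C. The part of the tissue's makeup in the differences of Cfd, C1s and C4bpa between the operated groups was not tested.

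C3, the component that both branches cleave, was well above background on all 20 arrays and was called in no comparison. Its levels ran from -1.76 to -1.20 in SHRSP, -2.67 to -0.86 in SHR, -2.06 to -0.11 in 1K1C, -2.53 to -0.31 in 2K1C and -3.07 to -1.38 in untreated WKY. The SHRSP levels lay closest together, with an SD of 0.29 against 0.76 to 1.15 in the other groups. The C3 difference was 0.68 ± 0.55 in SHRSP against SHR (95% interval -0.48 to 1.85) and 0.73 ± 0.55 in 1K1C against untreated WKY (95% interval -0.44 to 1.89).

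**Figure D4:**
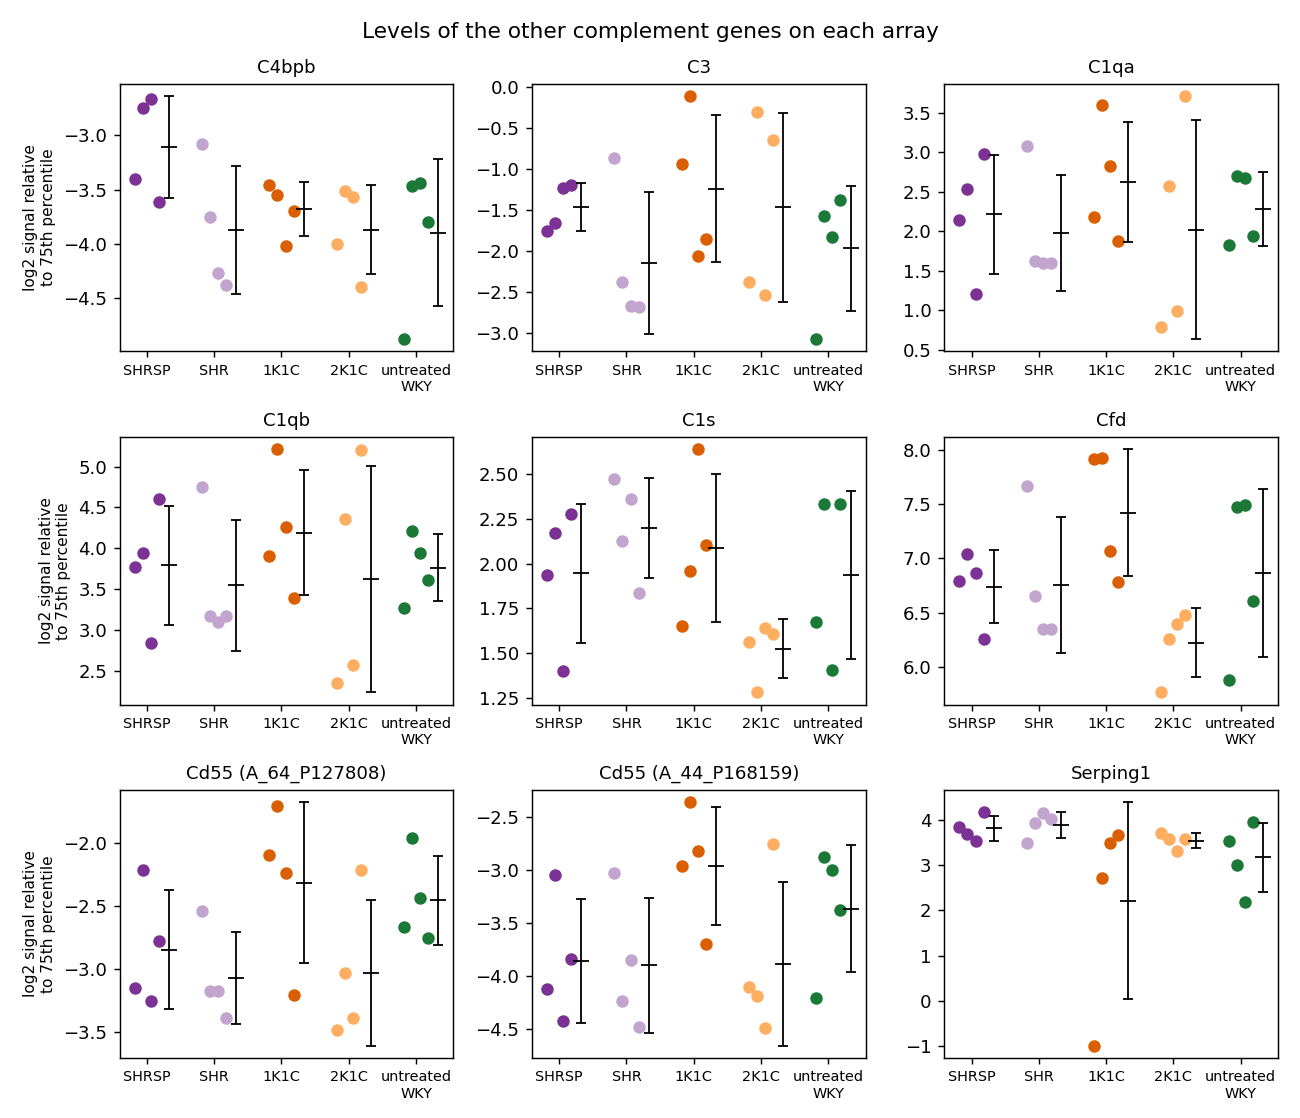
Levels of the 8 genes other than C4bpa on each array in log2 units relative to the array's 75th percentile, by group, with the mean and SD as a bar beside the 4 points and each Cd55 probe in a panel of its own. Each panel has its own vertical range. In the Serping1 panel 1 array of 1K1C lies at -0.995, far below the other arrays.

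Cd55, or decay-accelerating factor, which takes apart C3 convertases on cell surfaces, was well above background on all 20 arrays with both probes. The first probe averaged -2.85 ± 0.47 in SHRSP, -3.07 ± 0.37 in SHR, -2.32 ± 0.64 in 1K1C, -3.03 ± 0.58 in 2K1C and -2.46 ± 0.35 in untreated WKY (SD, n = 4 each). The second averaged -3.86 ± 0.59 in SHRSP, -3.90 ± 0.64 in SHR, -2.96 ± 0.56 in 1K1C, -3.88 ± 0.77 in 2K1C and -3.37 ± 0.60 in untreated WKY (SD, n = 4 each). In 1K1C against 2K1C the first probe gave 0.72 ± 0.33 and the second 0.92 ± 0.42, and in SHRSP against operated WKY they gave -0.18 ± 0.29 and -0.44 ± 0.36. The groups overlapped in both probes, and neither difference was called.

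Serping1, the gene of C1 inhibitor, which blocks C1r and C1s and also plasma kallikrein, had 1 value at odds with all others. Its levels were -0.995, 2.71, 3.49 and 3.66 in 1K1C and 3.71, 3.57, 3.31 and 3.58 in 2K1C. In SHRSP they were 3.85, 3.69, 3.54 and 4.19, in SHR 3.49, 3.93, 4.15 and 4.02, and in untreated WKY 3.55, 3.01, 2.18 and 3.96. On replicate 1 of 1K1C the 2 spots of the same probe read 16.7 and 4965 signal units, so the level of -0.995 is the mean of spots that disagree. With the spot of 16.7 left out, the 1K1C mean was 3.24 ± 0.42 in place of 2.22 ± 2.18 (SD, n = 4), and the difference from 2K1C moved to -0.30 from -1.33 and that from untreated WKY to 0.07 from -0.96. None of these was called, and Serping1 differed by 0.94 ± 0.60 in SHRSP against operated WKY (limma adjusted p 0.555), or by 0.42 with that spot left out. Such spots, more than 3 log2 units apart, made up 1303 of 344585 probe and array values with at least 2 spots, and this was the only one among the 9 genes.

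In the comparisons of operated with untreated WKY 0 of the 9 genes were called. In 2K1C against untreated WKY 0.0122% of all genes were called, and the 9 gene differences ran from -0.76 ± 0.67 for C4bpa to 0.50 ± 0.55 for C3, with a median of -0.27 against 0.03 for all genes tested. In 1K1C against untreated WKY 0% of all genes were called by limma, although 1490 genes and none of the 9 had an unadjusted p under 0.05. There 8 of the 9 differences were above 0, with a median of 0.34 against 0.10 for all genes tested, and 65.5% of all genes tested were above 0 as well. The widest were 0.73 ± 0.55 for C3, 0.71 ± 0.67 for C4bpa and -0.96 ± 0.69 for Serping1. The exception below 0 was Serping1, which had 0.07 once the discordant spot was left out. These comparisons and those of SHR and SHRSP share the 4 untreated WKY arrays.

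**Figure D5:**
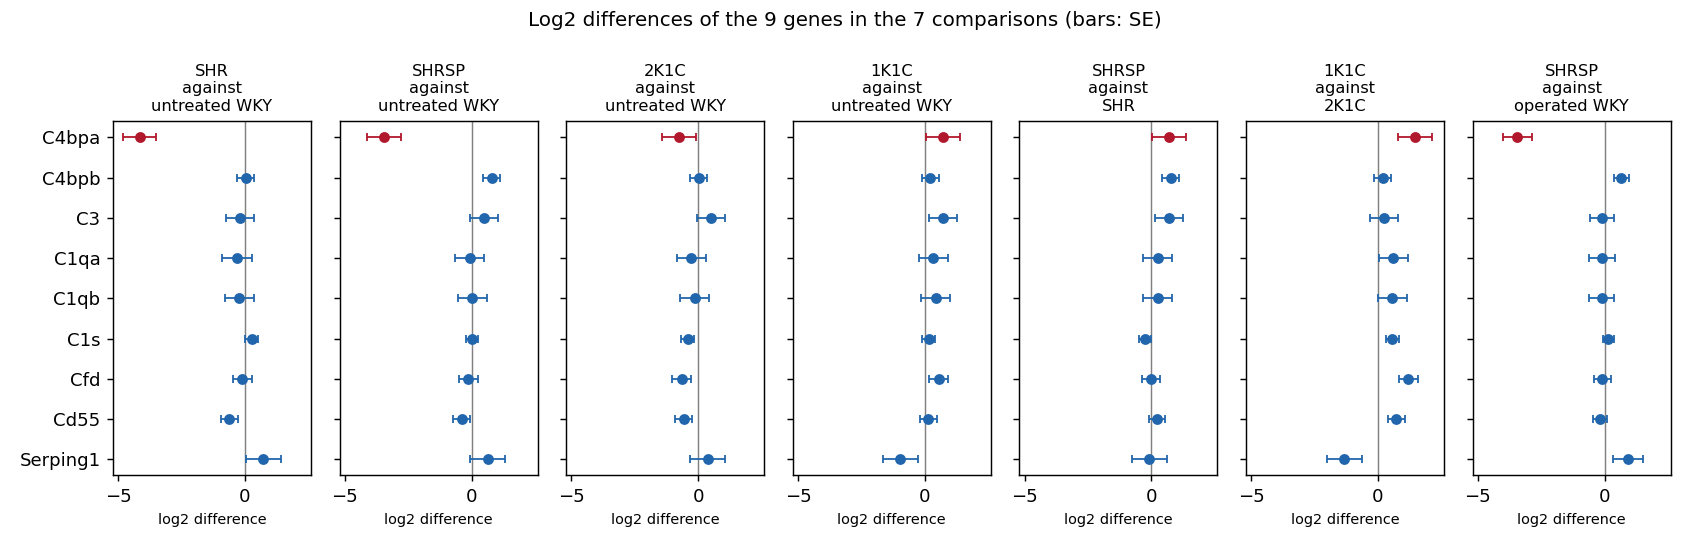
Log2 differences (with SE) of the 9 genes in the 7 comparisons. C4bpa lies near -4 or -3.5 in the 3 comparisons of SHR or SHRSP with WKY, and the other 8 genes lie between -1.33 and 1.20 in every comparison.

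The wider pathway was read from a list of 45 other complement genes, of which 39 were on the array and 23 passed the filter on dim signals. In each of the 7 comparisons 0 of the 23 were called, where between 0% and 2.4% of all genes were called, and nothing is read from that count. In SHRSP against operated WKY 8 of the 23 were higher and 15 lower, with a median of -0.14 against -0.04 for all genes tested. There the widest differences were 0.65 ± 0.53 for Vtn, which encodes vitronectin, an inhibitor of the terminal complex, and -0.41 ± 0.35 for C5ar1, the receptor of the fragment C5a. In SHRSP against SHR they were 0.75 ± 0.82 for the ficolin gene Fcnb and 0.67 ± 0.89 for Itgb2, the beta chain of the complement receptors CR3 and CR4. In SHR against untreated WKY they were -0.74 ± 0.41 for C5ar1 and -0.66 ± 0.93 for the ficolin gene Fcna. In SHRSP against untreated WKY C5ar1 had -0.62 ± 0.41.

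Between the operated groups 14 of the 23 were higher in 1K1C and 9 lower, with a median of 0.26 against 0.02 for all genes tested. The widest differences were 1.66 ± 0.57 for C6, a component of the membrane attack complex (limma adjusted p 0.109), and 1.57 ± 0.56 for C2, the protease of the classical C3 convertase (limma adjusted p 0.12). In 2K1C against untreated WKY the same 2 genes had -1.07 ± 0.57 and -0.93 ± 0.56. In 1K1C against untreated WKY 22 of the 23 had a higher mean, with a median of 0.24, where all genes tested had a median of 0.10 and 65.5% of them a higher mean. The widest differences were -0.77 ± 0.61 for Vtn and 0.64 ± 0.56 for C2. In the same comparison 0 of 8 smooth muscle (median -1.01) and 1 of 6 tested mesothelium markers (-1.22) had a higher mean. So did 10 of 10 fibroblast (0.50), 10 of 11 white adipocyte (0.43) and 9 of 11 tested macrophage markers (0.28). Tested markers of endothelium (8 of 9), pancreas (7 of 8), hepatocytes (4 of 5) and lymphocytes (3 of 4) were mostly higher. None was called, and the part of the tissue's makeup in the complement differences was not tested.

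Liver markers were read because C4bpa is made mainly by the liver. Of 9 hepatocyte markers 5 passed the filter on dim signals, and their mean level ran from -1.07 to 1.13 in SHRSP, -1.01 to 0.27 in SHR, -1.54 to -0.04 in 1K1C, -1.85 to 0.80 in 2K1C and -1.83 to -0.55 in untreated WKY. The groups overlapped in this mean level. In SHRSP against operated WKY 4 of the 5 had a higher mean and 1 a lower, with a median of 0.66 against -0.04 for all genes tested, and none was called. Alb, which encodes albumin, had the widest difference, 1.84 ± 0.47 (limma adjusted p 0.0546), Ahsg had 0.06 ± 0.09 and Apoc3 -0.31 ± 0.52. In SHR and in SHRSP against untreated WKY 4 of the 5 markers also had a higher mean and 1 a lower. The medians were 1.29 and 1.48, against 0.02 and 0.004 for all genes tested. In each of these comparisons 1 of the 5 was called higher, where 1.85% and 2.4% of all genes were called. The part of liver RNA in the C4bpa levels was not tested.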

How the data were processed

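Total RNA of whole mesenteric artery was labelled with Cy3 and hybridised to 60-mer rat arrays, 1 rat per array. The members and gene lists were chosen with earlier results of these data known. Each spot's signal intensity was made by the authors in Agilent's Feature Extraction (version 10.7.3.1 in the submitters' processing notes) and is background-subtracted, per the file headers. The deposited value table held the same linear, uncentred intensity (largest relative difference 0, array medians 59.7 to 133.5).

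Each log2 intensity was set against the 75th percentile of the non-control spots on its array. Control spots (4259 per array) and spots flagged as outliers (301 to 684) were left out, and spots of a probe were averaged. Probes had to exceed background clearly (the software's well-above-background flag) in every array of some group. The brightest kept probe of each gene name was tested with limma 3.58.1 in R 4.3.3 over all 5 groups (lmFit, eBayes), two-sided, with Benjamini-Hochberg adjustment over 16401 genes and a threshold of 0.05. Names follow RefSeq where an accession matched (18355 of 30367 probes). The fit was tested on simulated data.

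All 9 genes and all their probes are named. Of the other complement genes, up to 4 called per direction are named, or the 2 with the widest differences where none was called, and so are the 5 genes most like C4bpa and the called probes within 1000 kb of it. One gene that this rule names is not reported here. Replicates are labelled as biological. Replicate numbers did not pair the arrays (see the closing section). The number of arrays limits the precision.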

Additional observations from a re-analysis of the deposited data

Results flagged for a closer look

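Of 50 sets of 4 levels (10 probes in 5 groups) 3 held an array set far apart from the other 3 by Dixon's test, where chance gives about 1 in 20, or 2.5. All were replicate 1 of SHR, with C1qa at 3.08, C1qb at 4.75 and C3 at -0.86, against 1.59 to 1.63, 3.099 to 3.17 and -2.67 to -2.37 on the other SHR arrays. On that array the mean level of the 11 macrophage markers was 0.95, against -0.36 to -0.02 on the other SHR arrays, and that of the 11 white adipocyte markers 3.40, against 1.65 to 2.02. The mean of the 8 smooth muscle markers was 2.54, against 4.29 to 4.59. Without it the difference of SHR against untreated WKY was -0.68 for C1qa, -0.62 for C1qb and -0.61 for C3, in place of -0.31, -0.22 and -0.18, and none of the 3 was called with or without it.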

How the results depend on the processing

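The 20 refits that each left out 1 array kept C4bpa as the 1 gene called of the 9 in SHR and SHRSP against untreated WKY and in SHRSP against operated WKY (1 to 1 each), and 0 to 2 of the 9 in 1K1C against 2K1C, with 2 without 1K1C replicate 4 and 1 without SHR replicate 1. Of the other alternatives, requiring signals well above background on all 20 arrays left 8 of the 9 genes, without C4bpa, and called 0 in those 3 comparisons by construction. A fit of the compared groups alone, which takes its spread from those groups only, called 0 of the 9 in SHRSP against untreated WKY. There the C4bpa difference was still -3.46, with an SE of 0.82 in place of 0.67. Over its 30 alternatives the C4bpa difference ran from -3.98 to -1.24 in SHRSP against operated WKY, from -4.66 to -1.37 in SHR against untreated WKY and from -4.00 to -1.22 in SHRSP against untreated WKY. The last 2 comparisons share the control arrays on which C4bpa was chosen, so nothing is read from their calls. SHRSP against operated WKY sets a substrain of SHR, on the slide of SHR, against WKY, so its calls are a description too. The smallest sizes came from normexp background correction with an offset of 50, followed by quantile normalization. The replicate block called 1 of the 9 in the same 3 comparisons and 0 in the other 4 and changed no call among the 9, and C4bpa in SHRSP against operated WKY had a limma adjusted p of 0.00341 with it. Deviations of arrays with the same number correlated between -0.57 and 0.64, with a median of -0.03, and over 0.1 in 13 of 40 pairs. Those of arrays with different numbers had a median of 0.004 and were over 0.1 in 40 of 120 pairs, so the numbers did not pair the arrays. Counts over all genes moved by more than 1.5 times. Leaving out 1 array gave 126 to 848 for SHR against untreated WKY (303 with all arrays), 172 to 1090 for SHRSP against untreated WKY (393), the lowest without WKY replicate 3 and the highest without WKY replicate 4, and 0 to 1118 for 2K1C against untreated WKY (2). It gave 0 to 362 for 1K1C against untreated WKY (0), 0 to 1910 for 1K1C against 2K1C (0), 38 to 69 for SHRSP against SHR (59, the lowest without SHRSP replicate 2) and 178 to 318 for SHRSP against operated WKY (278, the lowest without SHRSP replicate 1). The fit of the compared groups alone gave 102, 161 and 39 for SHR and SHRSP against untreated WKY and for SHRSP against SHR, and the filter on all arrays gave 186 and 28 for SHR against untreated WKY and SHRSP against SHR. Normexp with quantile normalization gave 70 for 2K1C against untreated WKY. Alternatives with dim levels at the floor and without the discordant spot were chosen after the data were seen.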
